A study of Homo sapiens with 12 samples.

Results

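Major histocompatibility complex (MHC) class II molecules show peptides from endosomes to CD4 T cells, and 8 genes of this machinery were described here in Kasumi-1 cells with and without knockdown of WTAP. They are the peptide-binding chains HLA-DPA1, HLA-DPB1, HLA-DRA and HLA-DRB1, the peptide exchange factor chains HLA-DMA and HLA-DMB, the invariant chain CD74 and the activator CIITA. The genes were chosen by name, with earlier results on their expression in these same libraries known, so their difference between the groups is a description, given with no p. All 8 were among the 27411 genes of the expression table.

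Kasumi-1 is an established line of human acute myeloid leukaemia cells that carries the RUNX1 and RUNX1T1 fusion. The cells had been given a lentiviral GV112 vector with a short hairpin RNA against WTAP (shWTAP) or a scrambled hairpin (control). WTAP is a subunit of the complex that writes N6-methyladenosine (m6A) on RNA. Both groups carried the vector and were under puromycin at 2 µg/ml, started 48 h after transfection and kept for at least 24 h. The 12 libraries comprised immunoprecipitated (IP) and input RNA from 3 shWTAP and 3 control samples, called biological replicates in the labels, and gene levels came from the 6 input libraries as FPKM, fragments scaled to transcript length and library total. In bulk RNA, fewer cells with a transcript and less of it per cell cannot be told apart.

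A class II molecule is a heterodimer of an α and a β chain, assembled in the endoplasmic reticulum around the invariant chain CD74, which fills the peptide groove and carries the complex to endosomes. There CD74 is cut down to a fragment named CLIP, and HLA-DM, the dimer of HLA-DMA and HLA-DMB, exchanges CLIP for peptide. The genes share an X box and a Y box upstream of their start, bound by RFX, CREB family and NF-Y proteins, and CIITA does not bind DNA itself but is recruited to these proteins. Class II is best known from B cells, dendritic cells and macrophages, and it is also found on part of myeloid leukaemias.

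The shared promoter elements were looked up in the RefSeq promoter table (build GRCh38.p14). Entries were found for 6 of the genes, CD74, HLA-DRB1, HLA-DMA, HLA-DMB, HLA-DPB1 and HLA-DPA1. The search used the Y box core ATTGG and the X box part ACNGATG on both strands over the 250 bases before each start. The sequences are shown because these genes are known to be controlled through these boxes, and their spacing can be read from them. Each runs 5′ to 3′ on the gene's strand from base -130 to base -15 before the start, with matches to either motif in capitals (CCAAT is ATTGG on the other strand).
CD74: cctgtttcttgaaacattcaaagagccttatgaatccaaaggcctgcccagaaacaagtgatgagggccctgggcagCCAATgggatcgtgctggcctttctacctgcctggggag
HLA-DRB1: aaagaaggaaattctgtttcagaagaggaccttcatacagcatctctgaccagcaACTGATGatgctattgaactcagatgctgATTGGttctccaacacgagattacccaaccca
HLA-DMA: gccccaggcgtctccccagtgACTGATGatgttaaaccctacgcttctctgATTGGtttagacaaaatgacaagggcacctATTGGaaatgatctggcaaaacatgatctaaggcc
HLA-DMB: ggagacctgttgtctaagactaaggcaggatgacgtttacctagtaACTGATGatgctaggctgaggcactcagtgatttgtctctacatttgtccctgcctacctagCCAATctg
HLA-DPB1: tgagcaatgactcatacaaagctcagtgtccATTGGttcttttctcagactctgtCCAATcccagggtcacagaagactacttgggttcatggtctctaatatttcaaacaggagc
The windows lie on chromosome 5 at chr5:150412925-150413040 for CD74 and on chromosome 6 for the others, at chr6:32589863-32589978 for HLA-DRB1, chr6:32953112-32953227 for HLA-DMA, chr6:32941043-32941158 for HLA-DMB and chr6:33075860-33075975 for HLA-DPB1. All but that of HLA-DPB1 are on the minus strand.

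HLA-DRB1, HLA-DMA and HLA-DMB each held the 7 letters ACTGATG upstream of a Y box core. In HLA-DRB1 the X box part began at base -75 and the Y box core at base -46, with a further core on the opposite strand at -195. In HLA-DMA they began at -109 and -79, with a further Y box core at -49. In HLA-DMB they began at -84 and, for a core on the opposite strand, at -22. CD74 held a Y box core at -53 and an X box part only further up, at -209, both on the opposite strand. HLA-DPB1 held Y box cores at -99 and -75 and no X box part, and neither window of HLA-DPA1 held a match. Over all 35116 promoter windows, 32% held the Y box core, 6.35% the X box part and 2.05% both. A match is a description of letters, and its absence says only that these letters are not in the window.

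As a check of the labels, WTAP was at 6.97, 6.48 and 5.69 FPKM in the 3 shWTAP libraries, against 11.5, 11.2 and 11.7 FPKM in the 3 control libraries. The knockdown was partial, with a ratio of means of 0.556. Libraries summed to 177774 to 187182 FPKM, and FPKM carries no depth, so no counting interval could be set on a gene. Library shWTAP 1 (0.631%) and library control 3 (0.634%) had about double the share of mitochondrial mRNA of the other 4 (0.300% to 0.333%), and each of the 8 genes is given within and without that pair below.

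CD74 was by far the most abundant of the 8 genes and the α chains HLA-DPA1 and HLA-DRA came next, while HLA-DMB and CIITA were close to the floor of the table. The order by mean FPKM in shWTAP cells was CD74, HLA-DPA1, HLA-DRA, HLA-DMA, HLA-DRB1, HLA-DPB1, CIITA and HLA-DMB. In control cells it was the same except that HLA-DRA stood above HLA-DPA1. Among neighbours in the shWTAP order, HLA-DPA1 and HLA-DRA overlapped in their libraries, as did HLA-DPB1 and CIITA. Among neighbours in the control order, HLA-DPA1 and HLA-DMA overlapped, as did HLA-DMA and HLA-DRB1, and HLA-DPB1 and CIITA. CD74 exceeded 94.9% of all listed genes in shWTAP cells and 93.5% in control cells, HLA-DPA1 70.3% and 60.5%, and HLA-DMB 31.7% and 33.8%.

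In 6 of the 8 genes every shWTAP library was above every control library (HLA-DPA1, HLA-DPB1, HLA-DRA, HLA-DRB1, HLA-DMA and CD74). Over all listed genes, 8.26% were higher in this way. The reverse held for 1 gene, HLA-DMB, against 9.54% of all listed genes, and for CIITA the groups overlapped. Only 4 of the 8, HLA-DPA1, HLA-DRA, HLA-DMA and CD74, reached 1 FPKM in at least 3 libraries and entered the limma fit of log2(FPKM + 1), and the other 4 stayed below this filter. At a Benjamini-Hochberg adjusted p under 0.05, limma called 3.89% of all 11383 tested genes, 1.48% higher and 2.42% lower in shWTAP cells, and 1 of these 4 genes (HLA-DPA1) was among them. Since the 8 genes were named with these values known, that count is a description and nothing is read from it.

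**Figure D1:**
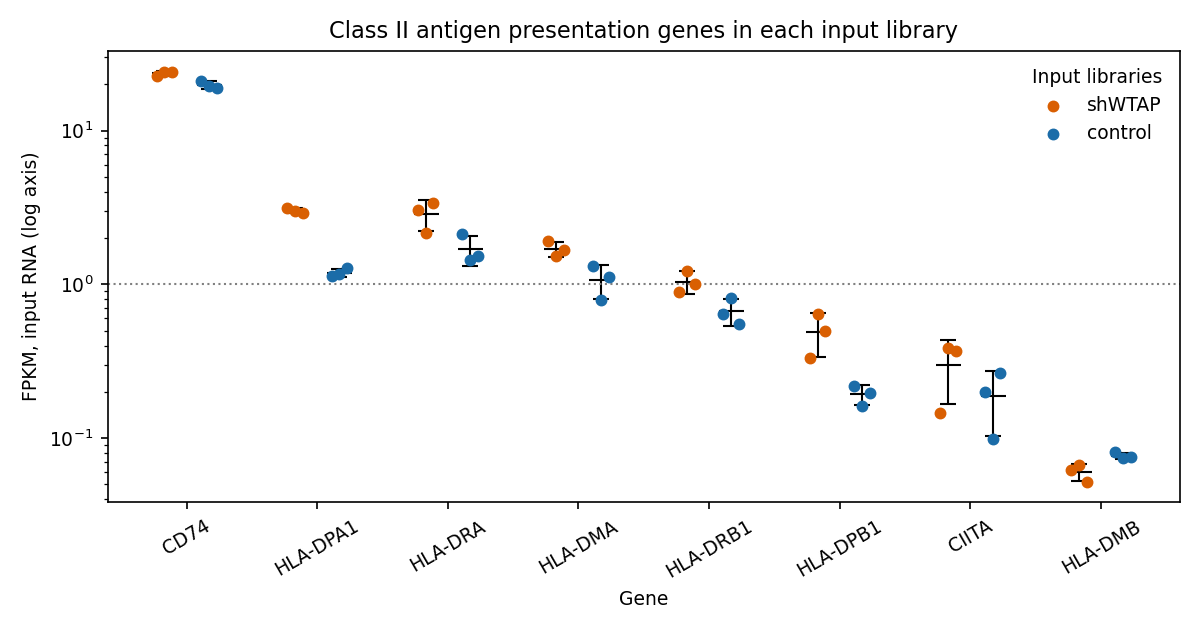
FPKM of each gene in the 6 input libraries on a log axis, with shWTAP libraries in orange and control libraries in blue. Bars give the mean and SD of 3 libraries and the dotted line marks 1 FPKM. The orange points lie above the blue ones for 6 genes, below them for HLA-DMB, and overlap them for CIITA.

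HLA-DPA1 encodes the α chain of the HLA-DP dimer and had the largest log2 difference of the 8 genes. The authors' table places it (ENSG00000231389) on the minus strand at chr6:33064569-33080775. The table's build is not stated there, and the positions of all 8 genes overlap those of RefSeq in GRCh38.p14. Its level was 3.13, 3.01 and 2.91 FPKM in shWTAP cells, against 1.13, 1.17 and 1.28 FPKM in control cells. The groups were far apart and each was tight. The means were 3.02 ± 0.108 and 1.19 ± 0.0753 FPKM (SD, n = 3 each), a ratio of 2.53. The log2 difference was 0.87 (SE 0.07), which placed HLA-DPA1 at rank 32 of 11383 tested genes by size of rise. It was 0.86 between shWTAP 1 and control 3, and 0.88 among the other 4 libraries.

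HLA-DPB1 encodes the β chain that pairs with HLA-DPA1. It (ENSG00000223865) lies on the plus strand at chr6:33075990-33089696 and shares 4786 bases with HLA-DPA1, which is on the opposite strand. Its level was 0.333, 0.645 and 0.497 FPKM in shWTAP cells, against 0.218, 0.162 and 0.197 FPKM in control cells. Both groups were below 1 FPKM, and the shWTAP libraries were higher and more spread. The ratio of means, 2.56, was close to that of HLA-DPA1, while the log2 difference on the log2(FPKM + 1) scale, which understates low genes, was 0.32. It was 0.16 between shWTAP 1 and control 3, and 0.40 among the other 4 libraries. The ratio of HLA-DPA1 to HLA-DPB1 within a library averaged 6.64 ± 2.46 in shWTAP cells and 6.29 ± 1.02 in control cells (SD, n = 3 each), ranges that overlapped. Whether fragments were counted by strand is not given in the sources used here, so the shared stretch leaves the split between these partners uncertain.

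HLA-DRA encodes the α chain of HLA-DR, which unlike most class II chains varies little between people. It (ENSG00000204287) lies on the plus strand at chr6:32439878-32445046. Its level was 3.06, 2.17 and 3.41 FPKM in shWTAP cells, against 2.12, 1.43 and 1.53 FPKM in control cells. The groups came close without overlapping, as the lowest shWTAP library was just above the highest control library. The means were 2.88 ± 0.639 and 1.69 ± 0.373 FPKM (SD, n = 3 each), a ratio of 1.70, and the log2 difference was 0.52 (SE 0.15), rank 166 by size of rise. It was 0.68 between shWTAP 1 and control 3, and 0.44 among the other 4 libraries. Leaving out 1 library at a time gave 0.42 to 0.66.

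HLA-DRB1 encodes the main β chain partner of HLA-DRA and is among the most variable human genes. It (ENSG00000196126) lies on the minus strand at chr6:32578769-32589848. Its level was 0.895, 1.23 and 0.9997 FPKM in shWTAP cells, against 0.645, 0.810 and 0.550 FPKM in control cells. Again the groups came close without overlapping. The ratio of means was 1.56 and the log2 difference 0.29, the same within the pair of libraries high in mitochondrial mRNA and among the other 4. HLA-DRA over HLA-DRB1 within a library averaged 2.86 ± 0.952 in shWTAP cells and 2.61 ± 0.772 in control cells (SD, n = 3 each).

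Values of HLA-DRB1 are uncertain because near-identical genes lie beside it and reads can be split among them. HLA-DRB5, a paralog, was listed at 0.326 FPKM in shWTAP 3 and at 0 in the other shWTAP libraries, against 0.0713 FPKM in control 1 and 0 in the other control libraries. The pseudogene HLA-DRB6 was at 0.420 FPKM in shWTAP 2 and listed at 0 in the remaining 5 libraries. Neither pattern followed the groups. HLA-DPA3, a pseudogene of the HLA-DP region, was at 1.07, 0.307 and 0.174 FPKM in shWTAP cells, against 0, 0 and 1.17 FPKM in control cells. Its 2 highest libraries, shWTAP 1 and control 3, are those with the high mitochondrial share.

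Summed over HLA-DPA1, HLA-DPB1, HLA-DRA and HLA-DRB1, the peptide-binding chains came to 7.41, 7.05 and 7.82 FPKM in shWTAP cells, against 4.12, 3.58 and 3.55 FPKM in control cells. The sum was thus higher in every shWTAP library, with HLA-DPA1 and HLA-DRA making up most of it.

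CD74, the invariant chain, was higher by a smaller ratio than the chains it escorts. It (ENSG00000019582) lies on the minus strand at chr5:150400041-150412929. Its level was 22.7, 24.0 and 24.0 FPKM in shWTAP cells, against 21.1, 19.6 and 18.9 FPKM in control cells. Every shWTAP library was above every control library, by little. The means were 23.5 ± 0.766 and 19.9 ± 1.11 FPKM (SD, n = 3 each), a ratio of 1.19, and the log2 difference was 0.24 (SE 0.07), rank 1122. It was 0.25 between shWTAP 1 and control 3, and 0.23 among the other 4 libraries. CD74 shares 268 bases with TCOF1 on the opposite strand, at 13.7 FPKM in shWTAP cells and 14.8 FPKM in control cells. The ratio of CD74 to the summed peptide-binding chains was 3.06, 3.41 and 3.06 in shWTAP cells, against 5.12, 5.47 and 5.33 in control cells. On this per-length scale CD74 stood above the chains in all 6 libraries, by less in shWTAP cells.

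HLA-DMA encodes the α chain of the exchange factor HLA-DM. It (ENSG00000204257) lies on the minus strand at chr6:32948613-32969094. Its level was 1.91, 1.53 and 1.66 FPKM in shWTAP cells, against 1.32, 0.789 and 1.11 FPKM in control cells. The groups did not overlap. HLA-DMA shares 501 bases with BRD2 on the opposite strand, at 37.4 FPKM in shWTAP cells and 38.4 FPKM in control cells, and reads there could be split either way. The means were 1.70 ± 0.194 and 1.08 ± 0.269 FPKM (SD, n = 3 each), a ratio of 1.58, and the log2 difference was 0.39 (SE 0.12), rank 370. It was 0.46 between shWTAP 1 and control 3, and 0.35 among the other 4 libraries.

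HLA-DMB encodes the β chain of HLA-DM and was lower in shWTAP cells, at a very low level in both groups. It (ENSG00000242574) lies on the minus strand at chr6:32934629-32941028. Its level was 0.0623, 0.0666 and 0.0522 FPKM in shWTAP cells, against 0.0808, 0.0738 and 0.0757 FPKM in control cells. All 6 values were under 0.1 FPKM, and the log2 difference was -0.02, also within the pair of libraries high in mitochondrial mRNA and among the other 4. HLA-DMA over HLA-DMB within a library averaged 28.5 ± 4.82 in shWTAP cells and 13.9 ± 2.93 in control cells (SD, n = 3 each), so the α chain exceeded its partner in every library. A listed gene on the same strand, AL645941, shares 4510 bases with HLA-DMA and 3665 with HLA-DMB, and it averaged 0.0233 FPKM in shWTAP cells and was listed at 0 in control cells.

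CIITA, the activator of the class II genes, did not separate the groups. It (ENSG00000179583) lies on the plus strand at chr16:10866222-10943021. Its level was 0.146, 0.384 and 0.370 FPKM in shWTAP cells, against 0.200, 0.0985 and 0.265 FPKM in control cells. The lowest shWTAP library was below 2 of the control libraries. The ratio of means was 1.60 and the log2 difference 0.13. The difference was -0.14 between shWTAP 1 and control 3, and 0.26 among the other 4 libraries, so its sign turned on that pair. CIITA shares 13578 bases with DEXI on the opposite strand, and DEXI was at 2.30 ± 0.0776 FPKM in shWTAP cells and 2.03 ± 0.440 FPKM in control cells (SD, n = 3 each), well above CIITA.

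**Figure D2:**
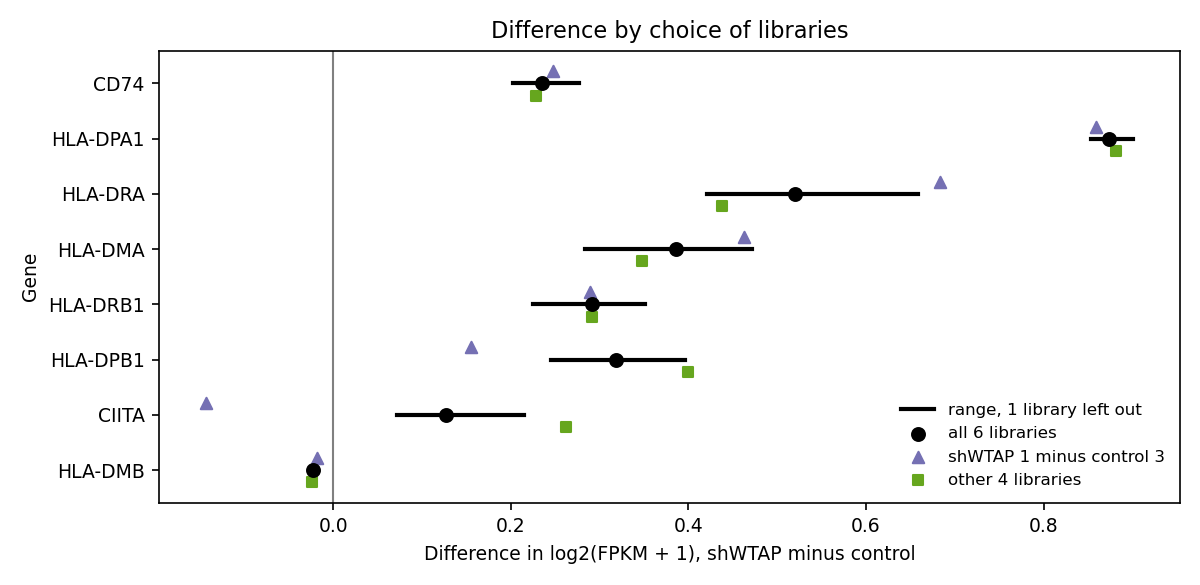
Difference in log2(FPKM + 1), shWTAP minus control, for each gene. Black points use all 6 libraries, black bars span the values with 1 library left out, triangles compare shWTAP 1 with control 3 and squares the other 4 libraries. HLA-DPA1 stays between 0.85 and 0.90, while CIITA lies on both sides of 0.

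The class II chains outside these 8 were low where they were listed. Of 9 other chains looked for, HLA-DQA1, HLA-DQB1, HLA-DRB5 and HLA-DOB were listed, and none passed the filter. HLA-DQA2, HLA-DQB2, HLA-DRB3, HLA-DRB4 and HLA-DOA were not listed, so nothing is known here of their level. HLA-DQB1, the HLA-DQ β chain, was at 0.198, 0.420 and 0.163 FPKM in shWTAP cells, against 0.0571, 0.129 and 0.0471 FPKM in control cells, groups that did not overlap. HLA-DOB, a chain of the HLA-DM inhibitor HLA-DO, averaged 0.247 ± 0.0970 FPKM in shWTAP cells and 0.306 ± 0.0852 FPKM in control cells (SD, n = 3 each), and these groups overlapped.

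In 5 further lists of genes that act around class II, 36 genes were tested, 2 were called higher, 3 lower and 31 neither. All 5 lists were chosen with earlier results of these data known, so their counts and p-values are a description only. IFI30, counted as higher, and CD40, not called, passed the filter through their shWTAP libraries alone. In the promoter complex and coactivators of CIITA, 12 of 12 genes were tested, none was called higher and 2 lower (0 and 6 at an unadjusted p under 0.05, which 9.87% of all tested genes met as higher and 13.6% as lower), and the list's median log2 difference was -0.14, beside -0.03 for all tested genes. NFYA, the subunit of NF-Y that contacts the Y box, fell to 14.2 ± 1.48 FPKM in shWTAP cells, against 24.4 ± 0.429 FPKM in control cells (SD, n = 3 each). Its log2 difference was -0.74 (SE 0.08) with a limma adjusted p of 0.00713, or 0.0502 without shWTAP 3. It was -0.60 between shWTAP 1 and control 3, and -0.81 among the other 4 libraries. ATF1, a CREB family factor, fell to 11.1 ± 2.29 FPKM in shWTAP cells, against 17.1 ± 0.548 FPKM in control cells (SD, n = 3 each). That difference of -0.59 (SE 0.13) was called with a limma adjusted p of 0.0498, and was not called with the replicate block (0.10) or when any 1 library other than shWTAP 1 was left out. It was -0.33 between shWTAP 1 and control 3, and -0.73 among the other 4 libraries.

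Of 13 genes of interferon γ signalling and the control of the CIITA gene, 8 were tested, 1 was called higher and none lower (1 and 2 at an unadjusted p under 0.05), with a median log2 difference of -0.14. IFNGR2, the signalling chain of the interferon γ receptor, rose to 15.5 ± 0.592 FPKM in shWTAP cells, against 11.4 ± 0.734 FPKM in control cells (SD, n = 3 each). Its log2 difference was 0.42 (SE 0.07) with a limma adjusted p of 0.0271, and 0.0775 with the replicate block. This call too was lost when any 1 library other than shWTAP 1 was left out, and the difference was 0.31 between shWTAP 1 and control 3 and 0.47 among the other 4 libraries.

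Of 12 genes of endosomal processing, 8 were tested, with 1 called higher, 1 lower and a median log2 difference of 0.10. CTSZ, a lysosomal carboxypeptidase, fell to 55.9 ± 9.03 FPKM in shWTAP cells, against 85.0 ± 9.06 FPKM in control cells (SD, n = 3 each), with a log2 difference of -0.60 (SE 0.13) and a limma adjusted p of 0.0489. The adjusted p was 0.0554 with the replicate block, and the call was lost when any 1 library other than shWTAP 1 was left out. Between shWTAP 1 and control 3 the log2 difference was -0.17, against -0.82 among the other 4 libraries. IFI30, a lysosomal thiol reductase that opens disulphide bonds of antigens, was at 1.41, 1.76 and 1.88 FPKM in shWTAP cells, against 0.0452, 0.0671 and 0.0658 FPKM in control cells. Its log2 difference was 1.34 (SE 0.10), and having entered the fit only through its shWTAP libraries it had to differ, so no p is given for it. AC007192, a listed gene that spans IFI30 on the same strand, was listed at 0 in all 3 shWTAP libraries, against 4.55, 4.85 and 4.52 FPKM in control cells, so the split of reads between these rows is uncertain.

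Limma called no gene among 5 tested genes of surface turnover or 3 of costimulation. An unadjusted p under 0.05 was reached by 2 turnover genes, both lower, and by 2 costimulation genes, CD40 and ICOSLG, both higher. Of all tested genes, 9.87% met this threshold as higher and 13.6% as lower. CD40 passed the filter through its shWTAP libraries alone, so its direction in that count was fixed in advance. In the turnover list, RAB7A, a late endosome GTPase, averaged 44.0 ± 5.24 FPKM in shWTAP cells and 55.1 ± 3.55 FPKM in control cells (SD, n = 3 each). The tetraspanins CD63 and CD81 averaged 29.4 and 11.1 FPKM in shWTAP cells, against 34.7 and 10.7 FPKM in control cells. CD40, the receptor through which T cells signal back, averaged 1.35 ± 0.0503 FPKM in shWTAP cells and 0.880 ± 0.153 FPKM in control cells (SD, n = 3 each), and had to be higher in shWTAP cells to pass the filter as it did. ICOSLG averaged 4.73 and 3.83 FPKM, and CD83, which steadies class II at the surface, 5.07 and 4.95 FPKM, in shWTAP and control cells.

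**Figure D3:**
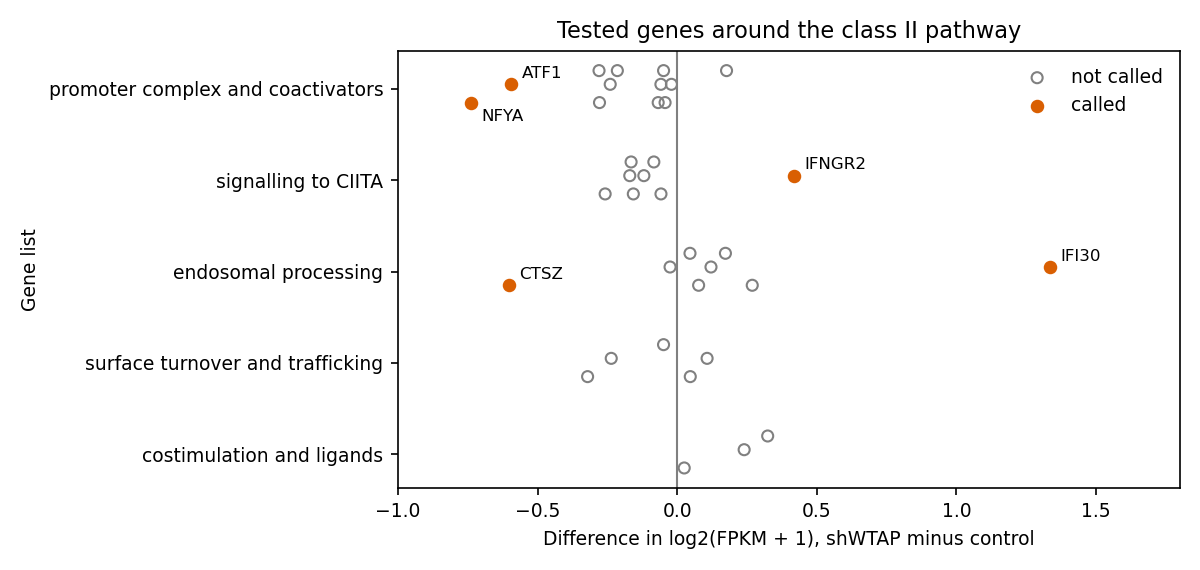
Difference in log2(FPKM + 1), shWTAP minus control, of each tested gene in 5 lists around the class II pathway. Filled points are the 5 genes called by limma, of which NFYA, ATF1 and CTSZ are lower and IFNGR2 and IFI30 higher, and open points the 31 that were not called.

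Markers of myeloblasts, of B cells, monocytes or macrophages and dendritic cells, and of T cells were compared beside these values. These lists too were chosen with earlier results of these data known, so their counts and p-values are a description only. The 9 myeloblast markers were all tested and summed to 2438 to 2480 FPKM in shWTAP libraries, against 2218 to 2275 FPKM in control libraries. MPO, at 1526 FPKM in shWTAP cells and 1372 FPKM in control cells, and KIT, at 792 and 732 FPKM, made up most of these sums. The log2 difference was positive for 5 of the 9, ANPEP (0.39), CD33 (0.16), MPO (0.15), CD34 (0.13) and KIT (0.11). It was negative for RUNX1T1 (-0.24), PRTN3 (-0.14), ELANE (-0.14) and AZU1 (-0.10). The groups did not overlap for ANPEP, MPO and CD34 (higher in shWTAP cells) and RUNX1T1 (lower), and overlapped for the others. Only ANPEP was called (higher, limma adjusted p = 0.0421). At an unadjusted p under 0.05, 2 of the 9 were higher and 1 lower, beside 9.87% and 13.6% of all tested genes. Of 7 B cell markers, MS4A1, BLK and CR2 were not listed, and the 4 listed summed to 13.7 to 15.9 FPKM in shWTAP libraries and 12.4 to 14.2 FPKM in control libraries, with CD79B and PAX5 leading. Of 8 monocyte or macrophage markers, CD14 was not listed, and the other 7 summed to 15.7 to 17.1 FPKM in shWTAP libraries and 14.4 to 15.9 FPKM in control libraries. Of 7 dendritic cell markers, CLEC9A, CLEC10A and FCER1A were not listed, and the sums were 1.65 to 2.37 FPKM in shWTAP libraries and 1.32 to 1.76 FPKM in control libraries. The 5 T cell markers summed to 65.4 to 73.1 FPKM in shWTAP libraries and 63.9 to 65.9 FPKM in control libraries. Most of this was CD3D (53.1 FPKM in shWTAP cells and 50.2 FPKM in control cells) and CD4 (13.3 and 13.5 FPKM). Limma called no marker of the B cell, monocyte, dendritic cell or T cell lists (of 9 tested, 2 had an unadjusted p under 0.05, MS4A7 and BATF3, both higher in shWTAP cells). CD22, a B cell surface gene outside these lists and named after its values were seen, was at 1.42 to 1.65 FPKM in shWTAP libraries, against 0.404 to 0.609 FPKM in control libraries. Its log2 difference was 0.72, and it too passed the filter through its shWTAP libraries alone. For all these markers and CD22, their part in the class II values was not tested.

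The genes whose levels over the 6 input libraries were most like CD74 and HLA-DRA were taken from tested genes with a mean of at least 5 FPKM, by Pearson's r of log2(FPKM + 1). For CD74, among 6244 genes, these were DELE1 (r = 0.985), WDR6 (r = 0.985) and CPNE1 (r = 0.979), and 28 genes exceeded 0.95. For HLA-DRA, among 6245 genes, they were ARRDC4 (r = 0.973), CHMP1B (r = 0.964) and CCDC136 (r = 0.95), and 3 genes exceeded 0.95. These values describe the same 6 libraries, which also share the groups.

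The m6A peaks came as 1 list per condition, with IP set against input, so a listed peak has no replicate and differences between lists were not tested. Fold enrichments and p-values of peaks are the authors' own. The shWTAP list held 35851 peaks and the control list 35341, with median enrichments of 6.75-fold and 6.77-fold. Of the 8 genes, 6 had a peak in the shWTAP list (CD74, HLA-DRA, HLA-DPB1, HLA-DMB, HLA-DMA and CIITA) and 4 in the control list (the same without HLA-DRA and HLA-DPB1). These counts take every listed peak. The only peak of HLA-DPB1 and both control peaks of HLA-DMB had an authors' false discovery rate above 0.05 (log10 values of -1.21, -1.22 and -0.438). Among all listed genes, 55.2% had a peak in the shWTAP list and 54.6% in the control list. For the genes that passed the expression filter these shares were 77.1% and 77.2%. Of the genes' 13 peaks in the shWTAP list, 9 (69.2%) overlapped any peak of the control list by at least 1 base, and of their 14 in the control list 10 (71.4%) overlapped any peak of the shWTAP list. Over all peaks of the lists the shares were 82.8% and 82.6%. HLA-DPA1, with the largest log2 difference in level, and HLA-DRB1 had no peak over their coordinates in either list.

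CD74 had a peak with modest enrichment and very small p in both lists, at the 3′ untranslated end. It lay at chr5:150401624-150401982 in the shWTAP list with 3.05-fold enrichment (the authors' p = 1e-111), and at chr5:150401624-150401953 in the control list with 3.12-fold enrichment (the authors' p = 1e-91). The control list held a further peak at chr5:150400041-150400220 with 2.59-fold enrichment (the authors' p = 5e-04), where TCOF1 runs on the opposite strand and the shWTAP list has a peak assigned to TCOF1. HLA-DRA had a peak only in the shWTAP list, in the 5′ untranslated region at chr6:32439878-32439996, with 2.37-fold enrichment (the authors' p = 0.0093). HLA-DPB1 likewise had a peak only in the shWTAP list, in the 3′ untranslated region at chr6:33086623-33086713, with 1.57-fold enrichment (the authors' p = 0.017). Both are weak peaks of genes that were lower in control input, and whether detection followed the input level was not tested.

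HLA-DMA had its main peaks in both lists. In the 3′ untranslated region they lay at chr6:32948613-32949525 with 4.06-fold enrichment in the shWTAP list, and at chr6:32948733-32949495 with 2.63-fold in the control list. In the neighbouring exon they lay at chr6:32949615-32949915 with 3.21-fold enrichment in the shWTAP list and at chr6:32949585-32949945 with 4.26-fold in the control list. One peak was thus higher in the shWTAP list and the other in the control list. A further weak peak at chr6:32950394-32950454 (2.89-fold, the authors' p = 0.025) stood only in the shWTAP list. Its authors' false discovery rate was above 0.05 (log10 of -1.04).

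HLA-DMB, at under 0.1 FPKM, had peaks with p of 0.0015 or more. The shWTAP list held exon peaks at chr6:32936875-32937055 (4.82-fold) and chr6:32937234-32937564 (8.68-fold), against a single control peak over both at chr6:32936216-32937414 (10.2-fold). A 3′ untranslated peak at chr6:32934629-32934839 (10.6-fold) stood only in the shWTAP list, and a 5′ untranslated one at chr6:32938942-32941028 (6.77-fold) only in the control list. The authors' false discovery rate was above 0.05 for both control peaks and for the 4.82-fold shWTAP peak (log10 of -0.805).

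CIITA carried the most enriched peak of the 8 genes in either list, and its input level was under 0.4 FPKM in every library. This peak, in exon 11 of a transcript with 20 exons, lay at chr16:10907212-10908412 with 37.1-fold enrichment in the shWTAP list (the authors' p = 1.3e-22), and at chr16:10907272-10908502 with 68.8-fold in the control list (the authors' p = 3.2e-19). It was above 97.4% of the shWTAP list and 99.2% of the control list. Beside it lay a smaller exon 11 peak with 3.50-fold enrichment in the shWTAP list and 12.4-fold in the control list, and a weak one of 3.38-fold in the control list alone. In the 3′ untranslated region a shWTAP peak of 15.4-fold at chr16:10923196-10924828 faced control peaks of 22.6-fold at chr16:10923988-10924258 and 10.5-fold at chr16:10924348-10925428. Fold enrichment is a ratio to input, and mean CIITA input was 0.300 FPKM in shWTAP cells and 0.188 FPKM in control cells. Whether fold enrichment followed the input level was not tested, so these folds cannot be read as a change in m6A.

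At the far 3′ end, CIITA was assigned a peak at chr16:10928847-10929717 in both lists, with 19.5-fold enrichment in the shWTAP list and 21.6-fold in the control list, and p listed at 0 in both. The control list held 2 smaller peaks just beyond it, of 10.2-fold and 2.71-fold. All of these lie where DEXI, the more abundant gene, runs on the opposite strand, so their gene is uncertain. In all CIITA had 4 peaks in the shWTAP list and 8 in the control list, and 4 and 5 of them overlapped the other list. The control peaks of 3.38-fold and 2.71-fold had an authors' false discovery rate above 0.05 (log10 of -0.892 and -0.82). None of the 4 shWTAP peaks did, and the difference in number was not tested.

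**Figure D4:**
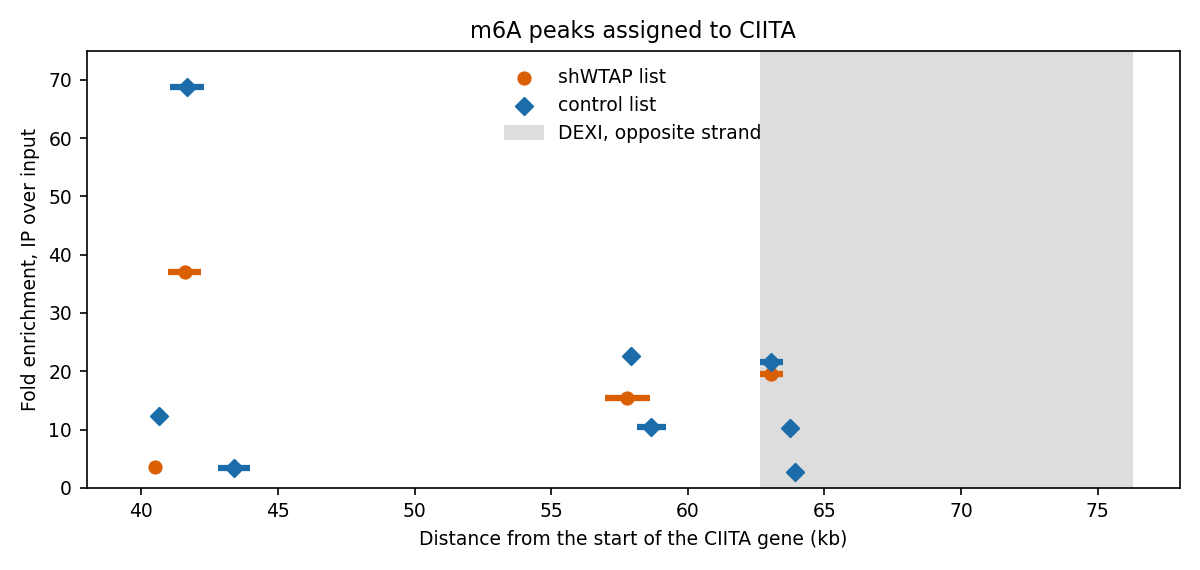
Fold enrichment of IP over input for the peaks assigned to CIITA, by distance in kb from the start of the gene, with shWTAP peaks as orange circles and control peaks as blue diamonds. Horizontal bars give the span of each peak, and grey marks DEXI on the opposite strand. The highest peak is at 37.1-fold in the shWTAP list and 68.8-fold in the control list. CIITA input was low in both groups, and differences between the lists were not tested.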

How the data were processed

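Poly(A) RNA was fragmented, taken through an m6A antibody or kept as input, and made into dUTP strand-marked libraries, per the labels' protocols. FPKM per gene was computed by the authors for the input libraries. For each peak the authors deposited a fold enrichment (a ratio, IP to input), a p-value, and the log10 of p and of a false discovery rate. Tools named in the submitters' processing notes are ChIPseeker, fastp, HISAT2 and HOMER. Not stated are the genome build, peak caller, counting by strand and pooling of replicates for peaks (not given in the sources used here). IP values per gene were not analysed here.

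Groups came from sample titles. The functions lmFit and eBayes (trend on) of limma 3.58.1, under R 4.3.3, were fitted to log2(FPKM + 1), shWTAP minus control, over 11383 genes with FPKM of at least 1 in at least 3 input libraries, with Benjamini-Hochberg adjustment over all of them, and were tested on simulated data. With 3 against 3 libraries an exact permutation test cannot go below p = 0.1. Depth is unknown: ratios of values under 0.1 FPKM showed no common step (at most 3.11% of ratios in 1 bin over 15 pairs of libraries). Same-numbered libraries did not deviate together (r = -0.11, 0.17 and -0.14), so numbers were not treated as pairs.

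Symbols of 8 of 8 genes matched RefSeq genes of GRCh38.p14 and overlapped them. Gene and peak coordinates are those of the files, counted from 1, and promoter positions those of RefSeq. The 8 genes and all lists were chosen with earlier results of these data known. Text names the 8 genes, WTAP, every called gene of a pathway list, or else its 3 most abundant, and the 3 genes most like CD74 and HLA-DRA. Alternatives changed the pseudocount, filter, normalization, variance trend, libraries, blocks and peak rules.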

Additional observations from a re-analysis of the deposited data

How the results depend on the processing

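With all 6 libraries limma called 443 genes, 1 of them among the 8 class II genes, and 2 higher and 3 lower among the pathway lists. The counts for class II and list genes carry no weight. The 8 genes were named with their values known, and the lists with earlier results of these data known. The number called over all genes was 82 with no filter on low values and 672 with quantile normalization. With the replicate number as a block it was 77, with 1 class II gene, 1 list gene higher and 1 lower, and the numbers did not pair the libraries. With the share of mitochondrial mRNA as a block it was 1938, with 2 class II genes, 4 list genes higher and 9 lower. Without both libraries high in that share it was 3142, with 2 class II genes and 10 list genes lower. Leaving out 1 library at a time gave 46 (without shWTAP 3) to 2751 (without shWTAP 1) genes, 1 to 2 class II genes, 1 to 2 list genes higher and 0 to 10 lower. All 4 tested class II genes kept a positive difference in each of these fits. A filter at 5 FPKM left 1 class II gene, CD74, which was positive and not called (0 called), and 1 list gene higher. With no filter, 7 of the 8 were positive, and 1 list gene was called higher and 1 lower. List genes called lower numbered 1 with a pseudocount of 0.1 and 1 without the variance trend. Among the 8 genes CIITA turned in sign, with -0.14 between shWTAP 1 and control 3. On a pseudocount of 0.1 the log2 difference of HLA-DPA1 was 1.27. Among peaks, a false discovery rate of at most 0.01 left 8 in the shWTAP list and 9 in the control list. Counting every peak over the genes' coordinates gave 26 and 30, of which 22 and 21 overlapped such a peak of the other list (9 and 9 for peaks assigned to the 8 genes), and the additional ones were assigned to BRD2, TCOF1, DEXI and AC133065. Unknown depth limits all values under 1 FPKM. These include all values of HLA-DPB1, HLA-DMB and CIITA, those of HLA-DRB1 in every library except shWTAP 2, and that of HLA-DMA in control 2.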
